A study of Mus musculus with 18 samples.

Results

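The genes examined here encode the protein parts of the cell's ribosomes, and their messages were compared in mouse prostate cancer cells with and without knockdown of Rnf185. A gene was included when it codes for protein and its mouse symbol is Rpl, Rps, Mrpl or Mrps followed by digits, with a trailing a, x, l or l1 allowed. Rplp0 to Rplp2 and Rpsa were included as well, and pseudogenes and the Rps6k kinases were left out. This gave 155 of the 15386 genes in the deposited table of scaled counts. By symbol, 79 of these belong to the cytosolic ribosome (48 to its large and 31 to its small subunit). Another 76 belong to the mitochondrial ribosome (49 named Mrpl as large, 27 named Mrps as small). A symbol need not match the subunit in which a mitochondrial protein sits. All 155 passed the filter on low counts. Rpl3l, Rpl39l and Rpl10l also meet the symbol rule but are outside that table: Rpl3l had 17 counts summed over the libraries, Rpl39l had 0 and Rpl10l had 0.

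The series holds 18 libraries of polyadenylated RNA from MPC3, a single mouse prostate cancer cell line. A group of 6 control libraries, named plko in the labels, was set against 6 libraries with the short hairpin RNA shRNF185.1 and 6 with the short hairpin RNA shRNF185.3, both directed at Rnf185, a gene for a membrane-bound ubiquitin ligase. A short hairpin RNA is made from a vector and lowers the message that it matches. The labels place 2 libraries of each group in each of 3 batches, and they do not say whether libraries came from separate cultures, so p-values measure the spread between these libraries, which may be technical. No drug treatment or time course is named for any group. Both hairpin groups are compared with the same 6 control libraries, so their comparisons are not independent of each other.

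A cytosolic ribosome joins a large and a small subunit, each a core of ribosomal RNA dressed with ribosomal proteins, and it makes nearly all the proteins of the cell. Mitochondria have ribosomes of their own, whose proteins are encoded in the nucleus and which translate the few messages of the mitochondrial genome. Most messages for cytosolic ribosomal proteins begin with a run of pyrimidines, the 5′ terminal oligopyrimidine tract, through which their translation follows nutrient and growth signals, whereas messages for mitochondrial ribosomal proteins mostly lack that tract.

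Library totals ranged from 22027395 to 43379662 counts. The level of Rnf185 itself was between 33.6 and 38.4 CPM (counts scaled to a common library size) in the control libraries, between 5.21 and 6.80 CPM under shRNF185.1 and between 5.19 and 6.72 CPM under shRNF185.3. The prostate epithelial genes Krt8, Krt18 and Hoxb13 were detected in every group. Epcam was not in the CPM table, and neither were the leukocyte markers Ptprc and Lyz2 or the endothelial marker Cdh5. The leukocyte marker Cd68 was in it, at 2.41 to 5.04 CPM in control, 1.75 to 2.86 CPM under shRNF185.1 and 2.2 to 3.16 CPM under shRNF185.3. The endothelial marker Pecam1 was at 0.0234 to 0.365, 0.0388 to 0.355 and 0.133 to 0.374 CPM in the same order. Krt8 was at 1070 to 1340 CPM in control, 699 to 952 CPM under shRNF185.1 and 796 to 863 CPM under shRNF185.3, Krt18 at 325 to 396, 161 to 190 and 144 to 152 CPM, and the 4 mesenchymal markers summed to 3320 to 4330, 3770 to 4460 and 4100 to 4930 CPM. The part of these marker shifts in the results was not tested. In bulk RNA, fewer cells of a kind and less message per cell cannot be told apart.

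The start regions of a few ribosomal protein genes are shown because the pyrimidine run lies there. Among the cytosolic members matched to a RefSeq promoter, the first 4 are those lowest under shRNF185.1 that have such a run. Members without a match were not examined for a run. Mrps5 is the mitochondrial member that was lowest under shRNF185.1. Each window runs from 60 bases before to 20 bases after the annotated start, 5′ to 3′, from RefSeq on GRCm38.p6. Capitals mark the pyrimidine run or the YY1 letters ATGGCGG on either strand, which in Rpl35a overlap each other.
Rpl22l1 (chr3:28805448-28805527, plus strand): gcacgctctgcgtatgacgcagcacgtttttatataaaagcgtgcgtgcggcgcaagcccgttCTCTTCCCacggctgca
Rps24 (chr14:24490618-24490697, plus strand): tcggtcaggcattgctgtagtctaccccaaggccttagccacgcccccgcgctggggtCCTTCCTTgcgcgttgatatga
Rps23 (chr13:90923062-90923141, plus strand): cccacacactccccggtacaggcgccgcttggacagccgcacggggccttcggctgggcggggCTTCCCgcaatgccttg
Rpl35a (chr16:33056422-33056501, plus strand): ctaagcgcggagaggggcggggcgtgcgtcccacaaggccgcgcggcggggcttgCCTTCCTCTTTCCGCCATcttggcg
Mrps5 (chr2:127587366-127587445, plus strand): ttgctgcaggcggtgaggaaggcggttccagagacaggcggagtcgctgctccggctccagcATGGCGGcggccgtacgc

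The RefSeq promoter table matched 59 of the 79 cytosolic and 67 of the 76 mitochondrial members, with 70 and 73 promoters. A pyrimidine run was taken as a C followed by at least 5 pyrimidines on the coding strand, within 10 bases before to 22 after the start. It was present in 52.9% of the cytosolic promoters, 28.8% of the mitochondrial promoters and 23.3% of all 32851 promoters in the table. Both classes held the ETS letters CCGGAAG more often than promoters at large, in 35.7% of cytosolic, 32.9% of mitochondrial and 8.86% of all promoters, over the whole window and on either strand. The YY1 letters ATGGCGG were in 20%, 17.8% and 4.05% in the same order, and the E-box CACGTG was in 11.4%, 8.22% and 7.15%. These are matches of letters and not measured binding sites.

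In control cells, the median cytosolic member had a level of 648 CPM per kilobase of its principal transcript, the median mitochondrial member 26.8 CPM per kilobase, and the median of all genes tested was 7.99 CPM per kilobase. Cytosolic members spanned 26.9 to 3380 CPM per kilobase. The highest were Rps2, a protein near the messenger RNA entry channel of the small subunit, at 3380 CPM per kilobase, Rplp1, an acidic protein of the stalk, at 3020 CPM per kilobase, and Rps18, in the head of the small subunit, at 2420 CPM per kilobase. The lowest were Rpl5, which carries the 5S ribosomal RNA, at 26.9 CPM per kilobase, Rpl12, at the base of the stalk, at 52.6 CPM per kilobase, and Rpl29 at 64.5 CPM per kilobase. Near-identical copies, described below, held 2590% of the count of Rpl5 and 1500% of that of Rpl12. The low levels of Rpl5 and Rpl12 are therefore uncertain.

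Mitochondrial members spanned 5.61 to 132 CPM per kilobase, with Mrps21 (132), Mrpl33 (111) and Mrpl52 (103 CPM per kilobase) at the top. Mrpl48 (5.61), Mrpl1 (6.16) and Mrpl47 (6.54 CPM per kilobase) were at the bottom. Among the control libraries the median coefficient of variation was 9.01% in the cytosolic class, 8.65% in the mitochondrial class and 12.0% over all genes tested. Single members ranged from 3.99% to 37.8% in the cytosolic class and from 3.13% to 17.1% in the mitochondrial class.

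Messages for cytosolic ribosomal proteins, added up per library, had a lower mean with either hairpin than in control. Their summed level per library was 48369, 53934 and 59284 CPM (lowest, median and highest) in control, 39392, 46329 and 49295 CPM under shRNF185.1, and 42718, 47665 and 52380 CPM under shRNF185.3. The groups overlapped, because the highest hairpin libraries lay above the lowest control library. The means were 54058 ± 4480 CPM (SD, n = 6) in control, 45120 ± 4070 CPM under shRNF185.1 and 47484 ± 3670 CPM under shRNF185.3, a change of -16.5% and -12.2%. The class took up 5.34%, 4.53% and 4.76% of all counts in the same order. No test was made on these sums.

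The mitochondrial class differed less from control. Its summed level per library was 3067, 3415.5 and 3720 CPM (lowest, median and highest) in control, 2913, 3314.5 and 3570 CPM under shRNF185.1, and 3069, 3260 and 3437 CPM under shRNF185.3. The means differed from control by -4.59% under shRNF185.1 and by -4.54% under shRNF185.3, which is within the spread of the control libraries (3406 ± 215 CPM, SD, n = 6). The cytosolic sum was 15.9 times the mitochondrial sum in control, 13.9 times under shRNF185.1 and 14.6 times under shRNF185.3.

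**Figure D1:**
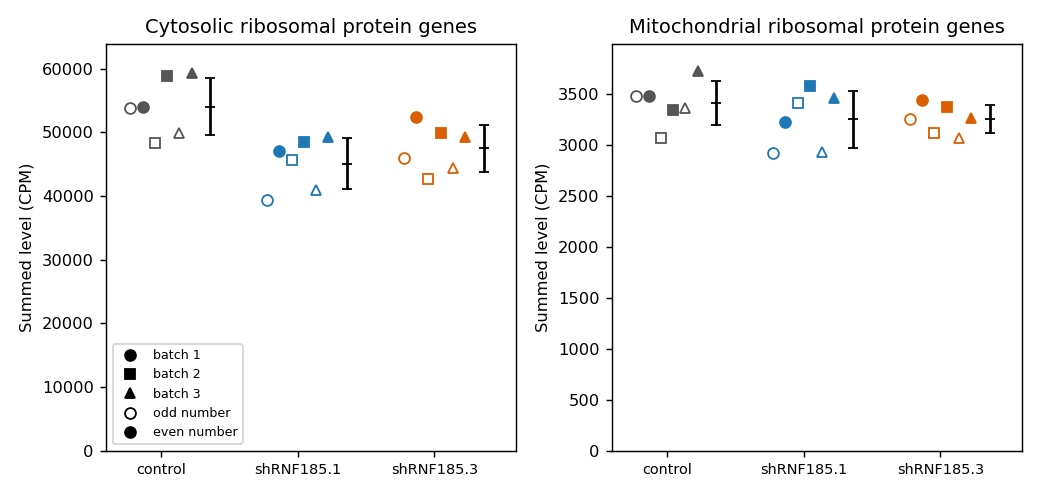
Summed level (CPM) of the 79 cytosolic (left) and 76 mitochondrial (right) ribosomal protein genes in each library, by group; marker shapes give the batch, open and filled markers odd and even replicate numbers, and bars the mean and SD of 6 libraries. The cytosolic means were 54058, 45120 and 47484 CPM and the groups overlapped; the mitochondrial groups lay on top of each other.

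Within batches the cytosolic sum was lower than control every time, by -19.9%, -12.3% and -17.4% in batches 1, 2 and 3 under shRNF185.1, and by -8.77%, -13.6% and -14.1% under shRNF185.3. The mitochondrial sum did not keep its direction. With shRNF185.1 it changed by -11.7%, 8.87% and -9.78% in batches 1, 2 and 3, and under shRNF185.3 by -3.74%, 1.17% and -10.5%. The even-numbered library of a batch and group had the higher cytosolic sum in 9 of 9 pairs, with a median ratio of 1.17 to the odd-numbered library, and the higher mitochondrial sum in 8 of 9 pairs. The total of the CPM column was also higher in the even-numbered library in 9 of 9 pairs (median ratio 1.02). Every group holds as many even as odd numbers. In a fit with a term for each replicate number, the median log2 fold change over the cytosolic members was -0.27 under shRNF185.1 and -0.20 under shRNF185.3. Over the mitochondrial members it was -0.07 with either hairpin. The fit without that term gave the same rounded medians. The source of the odd and even difference was not tested.

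The balance of the subunits in the cytosolic class differed little between groups, and no test was made on it. The ratio of summed large to small subunit messages was 1.36 in control, 1.36 under shRNF185.1 and 1.36 under shRNF185.3, with an SD of at most 0.0137 (n = 6), and its mean differed from control by -0.367% and -0.489%. In the mitochondrial class the ratio of summed Mrpl to Mrps messages was 2.01 ± 0.0310 in control, 2.06 ± 0.0451 under shRNF185.1 and 2.05 ± 0.0110 under shRNF185.3 (SD, n = 6).

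Gene by gene, 65 of the 79 cytosolic members fell under shRNF185.1 and 0 rose, at an adjusted p under 0.05 in edgeR's quasi-likelihood test with Benjamini-Hochberg adjustment over 14309 genes. In that comparison 14.3% of all genes tested were called lower and 14.6% higher. The median log2 fold change was -0.27 over the cytosolic members and -0.02 over all genes tested, and 79 of 79 fitted values were below 0, against 53% of all genes. Of the large subunit members 39 of 48 fell, and of the small subunit members 26 of 31 fell. With shRNF185.3, 40 of 79 cytosolic members fell and 0 rose, where 13.1% of all genes tested were called lower. The median log2 fold change was -0.20, and 78 of 79 fitted values were below 0, against 53.5% of all genes. These 40 were 24 of the large subunit and 16 of the small subunit. With an offset for the GC content and length of each gene, 59 cytosolic members and 21.5% of all genes tested were called lower under shRNF185.3, and 66 members and 17.8% of all genes under shRNF185.1.

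The number of cytosolic calls depended on which batches were used. Without batch 1 it was 22 of 79 under shRNF185.1 and 11 under shRNF185.3, where 7.19% and 5.99% of all genes tested were called lower. Without batch 2 it was 63 and 27, where 17.7% and 12.9% of all genes were. Without batch 3 it was 38 and 6, where 10.1% and 8.04% of all genes were, so that the 6 under shRNF185.3, 7.59% of the class, no longer exceeded the share of all genes. Each of those fits has 4 libraries per group. The size of the change moved less: the median log2 fold change within single batches was -0.32, -0.19 and -0.30 under shRNF185.1 and -0.13, -0.20 and -0.24 under shRNF185.3. The fitted value was below 0 in each of the 3 batches for 73 of 79 members under shRNF185.1 and for 71 of 79 under shRNF185.3.

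**Figure D2:**
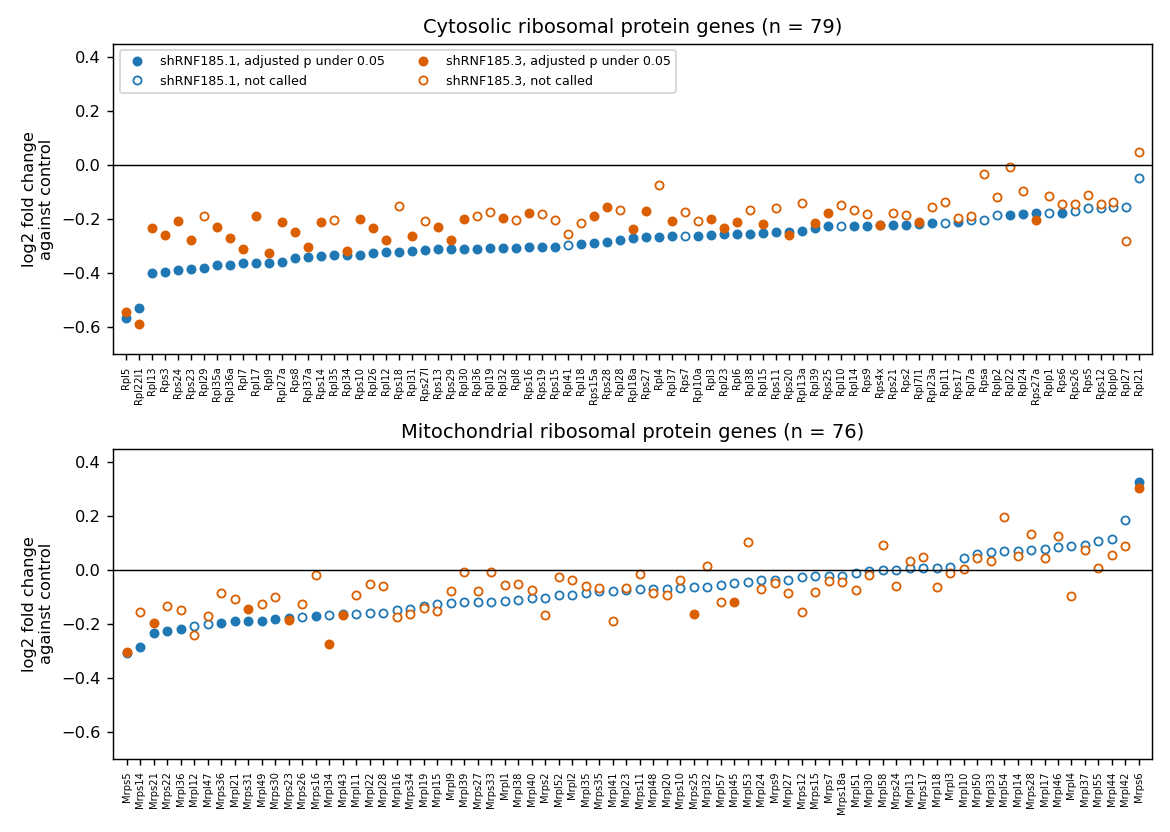
Log2 fold change against control of each cytosolic (upper) and mitochondrial (lower) ribosomal protein gene, ordered by its value under shRNF185.1; filled points passed an adjusted p of 0.05 in edgeR's test and open points did not. All 79 cytosolic points of shRNF185.1 lie below 0, and Mrps6 at the right end is the member that rose.

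For some members the hairpin libraries separated fully from control. All 6 hairpin libraries lay below the lowest control library for 23 cytosolic members under shRNF185.1, where this held for 5.77% of all genes tested, and for 11 under shRNF185.3, where it held for 5.7%. For 0 cytosolic members did all 6 hairpin libraries lie above the highest control library, with either hairpin; 7.02% and 7.6% of all genes tested had this. The members described next were taken by the size of their change, as paralogs named by the l ending with their partners, or by their level per kilobase, except Rps3, which was chosen after its values were seen.

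Rps3, a small subunit protein at the messenger RNA entry that also binds damaged DNA, was at 888, 935 and 1040 CPM (lowest, median and highest) in control, 651, 732 and 795 CPM under shRNF185.1, and 710, 804 and 867 CPM under shRNF185.3. Neither hairpin group overlapped control. The log2 fold change was -0.40 (SE 0.06, adjusted p = 0.000112, edgeR) under shRNF185.1 and -0.26 (SE 0.06, adjusted p = 0.00519, edgeR) under shRNF185.3. Only 1.47% of the 75-base windows of Rps3 occur in another annotated transcript. Without batch 3 the adjusted p under shRNF185.3 was 0.0545 in edgeR.

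Rpl9, a large subunit protein, was at 713, 779 and 861 CPM in control, 555, 623 and 661 CPM under shRNF185.1, and 575, 626 and 680 CPM under shRNF185.3. Its hairpin libraries all lay below its control libraries. Fitted log2 fold changes were -0.36 (SE 0.06, adjusted p = 0.000115, edgeR) and -0.32 (SE 0.06, adjusted p = 0.000347, edgeR) in the same order. Rpl7, another large subunit protein, showed the same separation, from 1020, 1130 and 1230 CPM in control to 795, 891 and 966 CPM under shRNF185.1 and 850, 910 and 1000 CPM under shRNF185.3. Its log2 fold change was -0.36 (SE 0.06, adjusted p = 0.000221, edgeR) and -0.31 (SE 0.06, adjusted p = 0.00101, edgeR).

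Rpl22l1 was the member with the lowest value under shRNF185.3. It is a paralog of Rpl22, the RNA-binding large subunit protein in whose place it can stand, and whose loss is known to raise Rpl22l1 in other settings. Rpl22l1 was at 95.9, 102 and 138 CPM in control, 62.4, 74.2 and 88.8 CPM under shRNF185.1, and 65.1, 72.3 and 83.3 CPM under shRNF185.3. No hairpin library reached the control libraries. This gave a log2 fold change of -0.53 (SE 0.10, adjusted p = 0.000353, edgeR) under shRNF185.1 and -0.59 (SE 0.10, adjusted p = 0.000145, edgeR) under shRNF185.3. In single batches it ranged from -0.91 to -0.33 and from -0.96 to -0.29.

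Rpl22 itself was at 299, 317 and 342 CPM in control, 255, 280 and 309 CPM under shRNF185.1, and 285, 320 and 330 CPM under shRNF185.3. Its shRNF185.1 libraries lay mostly below control, while its shRNF185.3 libraries lay among the control libraries. The log2 fold change was -0.18 (SE 0.05, adjusted p = 0.0122, edgeR) under shRNF185.1 and -0.01 (SE 0.05, adjusted p = 0.941, edgeR) under shRNF185.3. The call under shRNF185.1 was lost without batch 1 and without batch 2, with an adjusted p of up to 0.113 in edgeR.

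Other paralogs named by the l ending had smaller fitted changes. Rpl7l1, a paralog of Rpl7, was at 169, 204 and 216 CPM in control, 151, 169 and 192 CPM under shRNF185.1, and 155, 172 and 177 CPM under shRNF185.3, and the groups overlapped. Its log2 fold change was -0.22 (SE 0.07, adjusted p = 0.0179, edgeR) and -0.21 (SE 0.07, adjusted p = 0.0249, edgeR), and both calls were lost without batch 1 and without batch 3. Rps27l, a p53 target and paralog of Rps27, had a log2 fold change of -0.31 (SE 0.08, adjusted p = 0.00844, edgeR) under shRNF185.1, a call lost without batch 1 and without batch 3. With shRNF185.3 the value was -0.21 (SE 0.08, adjusted p = 0.0754, edgeR). Rps27 had -0.26 (SE 0.05, adjusted p = 0.00122, edgeR) and -0.17 (SE 0.05, adjusted p = 0.0265, edgeR), and the latter call was lost whichever batch was left out.

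**Figure D3:**
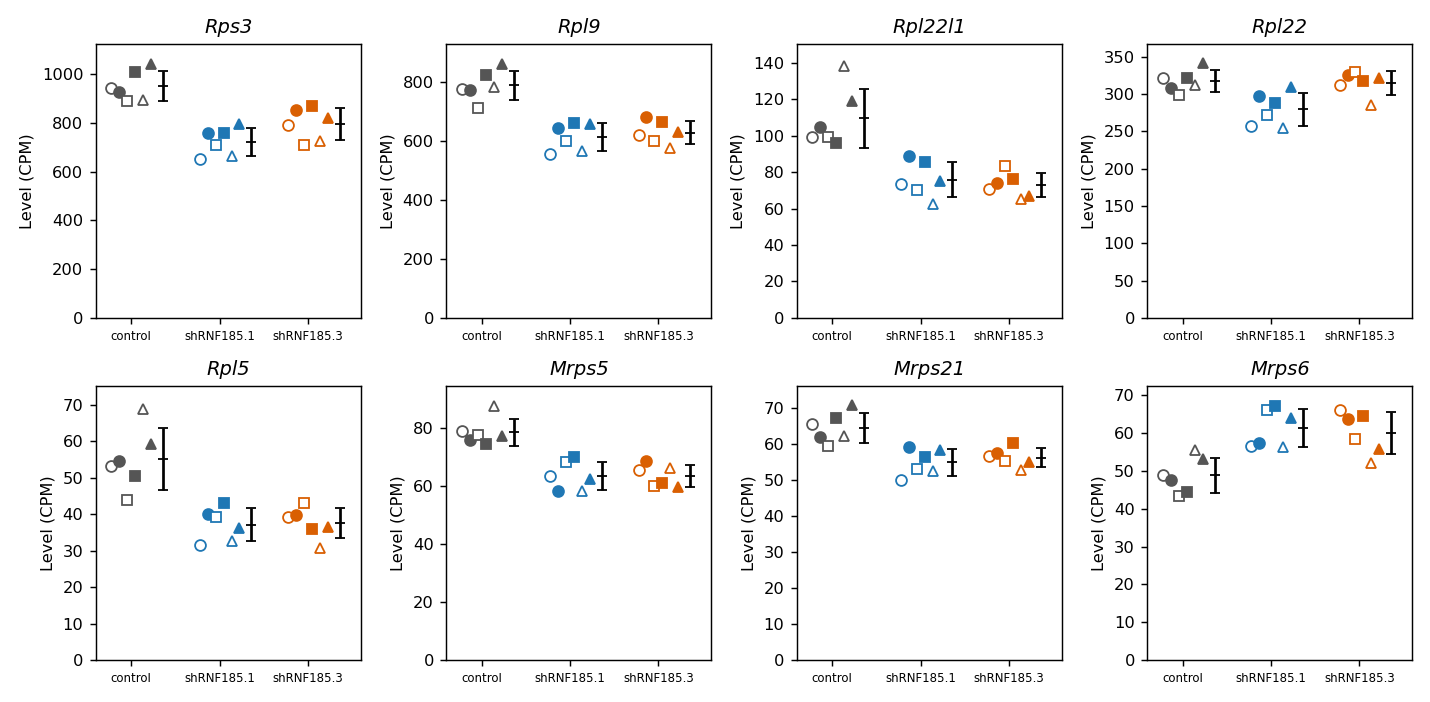
Level (CPM) of 8 ribosomal protein genes in each library, by group, with axes from 0; marker shapes give the batch, open and filled markers odd and even replicate numbers, and bars the mean and SD of 6 libraries. Rps3, Rpl9, Rpl22l1, Rpl5 and Mrps5 do not overlap control with either hairpin, Rpl22 overlaps with both, and Mrps6 is higher.

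At the other end of the called range lay Rpl24, Rps6 and Rps27a, each at -0.18 under shRNF185.1. Rps6 is the small subunit protein phosphorylated by S6 kinases, and Rps27a is made as a fusion with ubiquitin. Their adjusted p-values in edgeR were 0.0434, 0.0273 and 0.0457, and each call was lost without batch 1 and without batch 3. With shRNF185.3 the called members nearest 0 were Rps28 at -0.15, Rps27 at -0.17 and Rps25 at -0.18. The 14 cytosolic members not called under shRNF185.1 included the stalk proteins Rplp0, Rplp1 and Rplp2. Rplp1, for example, was at 1230, 1530 and 1730 CPM in control and 1080, 1400 and 1460 CPM under shRNF185.1, and had a log2 fold change of -0.18 (SE 0.10, adjusted p = 0.195, edgeR). Rpl21 was nearest to 0 under shRNF185.1, with -0.05 (SE 0.07), and had 0.05 (SE 0.07) under shRNF185.3.

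Ribosomal protein genes have many near-identical processed pseudogenes, and reads from either can be assigned to the other. A median of 16.7% of a cytosolic member's 75-base transcript windows occurred in another annotated gene, against a median of 0 for mitochondrial members. Windows shared at 10% or more were found in 57 of 79 cytosolic and 9 of 76 mitochondrial members. Annotated copies, defined as genes with at least 5% of the member's windows and at least 50% of their own windows in the member, numbered 102 for 54 cytosolic members. They held 30.7% as many counts as the cytosolic members, and for 17 members they held more counts than the member.

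Rpl5 is the clearest case, because its copy Gm15500 held 2590% of the count assigned to Rpl5. Rpl5 was at 43.9, 53.9 and 69.0 CPM in control, 31.7, 37.8 and 43.0 CPM under shRNF185.1, and 30.9, 38.0 and 43.0 CPM under shRNF185.3. The hairpin libraries lay below all control libraries. Its fitted log2 fold change was -0.57 (SE 0.10, adjusted p = 0.000286, edgeR) and -0.55 (SE 0.10, adjusted p = 0.000444, edgeR). With the copy's counts added, it was -0.35 (adjusted p = 0.000131, edgeR) and -0.24 (adjusted p = 0.00406, edgeR), so the value of Rpl5 alone is uncertain, and so is its low level.

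**Figure D4:**
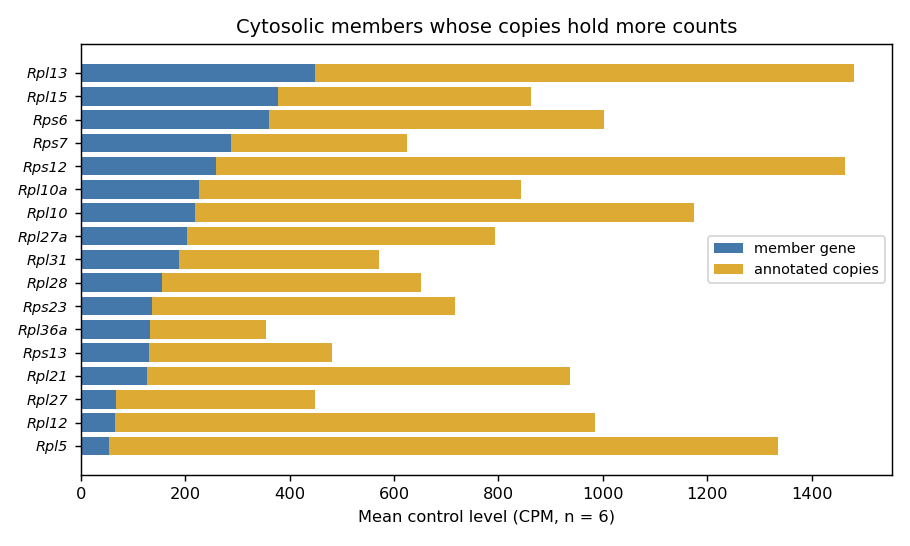
Mean control level (CPM, n = 6) of the 17 cytosolic members whose annotated copies hold more counts than the member, with the member in blue and its copies stacked in yellow. For Rpl5 the copy held 2590% and for Rpl12 the copies held 1500% of the member's count.

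Rpl13, lowest after Rpl5 and Rpl22l1 under shRNF185.1, was at 383, 461 and 485 CPM in control, 294, 344 and 398 CPM under shRNF185.1, and 357, 383 and 403 CPM under shRNF185.3. The groups overlapped, and its copies held 236% of its count. On the log2 scale it differed from control by -0.40 (SE 0.07, adjusted p = 0.000279, edgeR) and -0.23 (SE 0.07, adjusted p = 0.0185, edgeR). With copies added, the value under shRNF185.3 was -0.18 and was no longer called (adjusted p = 0.0959, edgeR), and that call was also lost without batch 1 and without batch 3. Rpl12 likewise went from -0.28 (adjusted p = 0.0157, edgeR) to -0.11 (adjusted p = 0.339, edgeR) under shRNF185.3.

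The sum and medians of the class changed little when copies were added: the cytosolic sum differed from control by -16.0% and -11.8%, and the medians were -0.27 and -0.19. The number of members called lower was 64 under shRNF185.1 and 32 under shRNF185.3, against 65 and 40 without the copies. Among the 22 cytosolic members with under 10% of their windows shared, 21 were called lower under shRNF185.1 and 12 under shRNF185.3, with medians of -0.29 and -0.20. The copies themselves, of which 87 were tested, had medians of -0.25 and -0.20. Of these, 24 fell and 1 rose under shRNF185.1, and 13 fell and 0 rose under shRNF185.3, where 14.3% and 13.1% of all genes tested were called lower. The copy that rose, Rps12-ps4, had a mean of only 0.117 CPM in control.

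The changes were also set beside the promoter letters, as a description. The 35 cytosolic members with a pyrimidine run had a median log2 fold change of -0.28 under shRNF185.1 and -0.19 under shRNF185.3, and the 24 matched members without a run had -0.26 and -0.21. Of the former 30 and 15 were called lower, and of the latter 18 and 14. Across the 79 cytosolic members the Spearman correlation of the change with level per kilobase was 0.17 and 0.24, with principal transcript length 0.06 and 0.02, and with GC content 0.12 and 0.19. The members share their libraries, and the level enters both sides of the first of these.

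In the mitochondrial class 13 of 76 members fell and 1 rose under shRNF185.1, where 14.3% of all genes tested were called lower, and 8 fell and 1 rose under shRNF185.3, where 13.1% were. These shares, 17.1% and 10.5% lower, are close to those of all genes. The median log2 fold change was -0.07 with either hairpin. In the fit of all libraries more calls were among genes named Mrps: 9 of 27 Mrps genes fell under shRNF185.1 and 5 under shRNF185.3, against 4 and 3 of 49 Mrpl genes. Without batch 2, 12 of 27 Mrps and 17 of 49 Mrpl genes fell under shRNF185.1, where 17.7% of all genes tested were called lower. The Mrps genes still had the larger share there, although the Mrpl genes had more calls. The 4 Mrpl genes under shRNF185.1 were Mrpl36, Mrpl21, Mrpl49 and Mrpl43, and the 3 under shRNF185.3 were Mrpl34, Mrpl43 and Mrpl45.

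The mitochondrial counts also turned on the batches. Including the members that rose, without batch 1 there were 4 calls under shRNF185.1 and 1 under shRNF185.3, where 15.5% and 14.9% of all genes tested were called. Without batch 2 there were 29 and 12, which is 38.2% and 15.8% of the class, where 35.7% and 26.8% of all genes were called. Without batch 3 there were 6 and 5, where 20.3% and 17.4% of all genes were called. In batch 2 alone the median log2 fold change was 0.11 under shRNF185.1 and 0.02 under shRNF185.3, against -0.20 and -0.06 in batch 1 and -0.13 and -0.15 in batch 3. In each of the 3 batches 22 of 76 members were below 0 under shRNF185.1 and 26 of 76 under shRNF185.3.

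**Figure D5:**
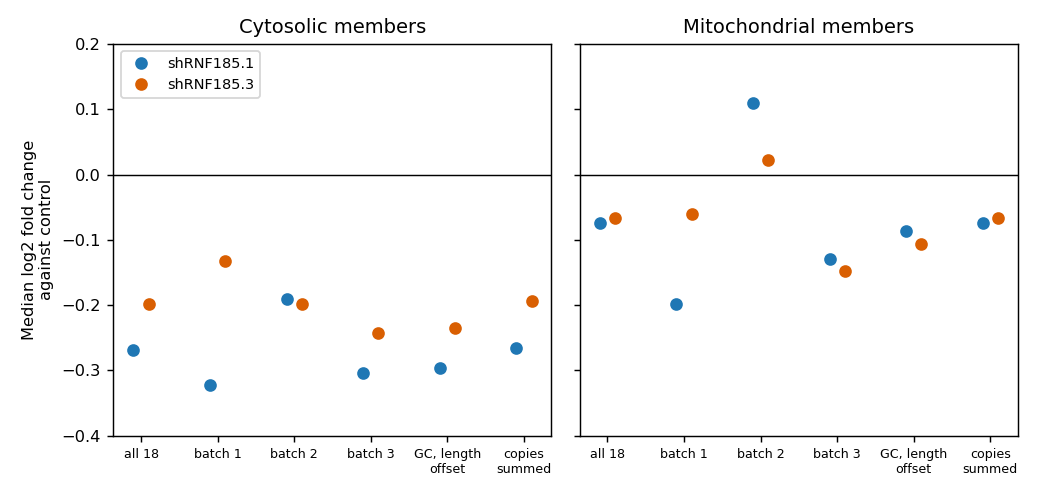
Median log2 fold change against control of the cytosolic (left) and mitochondrial (right) ribosomal protein genes, in the fit of all 18 libraries, in each batch alone, with a GC and length offset, and with copies summed. The cytosolic medians lie between -0.32 and -0.13; the mitochondrial medians lie on either side of 0.

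Mrps5, a small subunit protein, was the mitochondrial member with the lowest value with both hairpins. It was at 74.4, 77.4 and 87.6 CPM in control, 58.2, 62.9 and 70.1 CPM under shRNF185.1, and 59.7, 63.2 and 68.5 CPM under shRNF185.3. All hairpin libraries lay below all control libraries. Its log2 fold change was -0.31 (SE 0.06, adjusted p = 0.000347, edgeR) and -0.31 (SE 0.06, adjusted p = 0.000421, edgeR). In single batches it ranged from -0.45 to -0.14 and from -0.38 to -0.20, and it was called in 15 of 15 alternative fits with each hairpin.

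Mrps21, which had the highest level per kilobase of its class, was at 59.4, 63.8 and 70.6 CPM in control, 49.8, 54.6 and 59.2 CPM under shRNF185.1, and 52.6, 55.8 and 60.3 CPM under shRNF185.3. Its shRNF185.1 libraries did not overlap control, and its shRNF185.3 libraries did by 1 library. The log2 fold change was -0.23 (SE 0.05, adjusted p = 0.00195, edgeR) and -0.20 (SE 0.05, adjusted p = 0.00756, edgeR), and the latter call was lost without batch 1 and without batch 3. Mrps14 fell under shRNF185.1, from 25.9, 29.0 and 30.4 CPM to 21.9, 23.6 and 26.2 CPM (log2 fold change -0.28, SE 0.06, adjusted p = 0.000999, edgeR). With shRNF185.3 it was at 22.5, 26.5 and 27.9 CPM and at -0.16 (SE 0.06, adjusted p = 0.0517, edgeR).

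Mrpl34 had no overlap with control only under shRNF185.3, at 23.9, 26.5 and 28.3 CPM against 29.0, 30.8 and 35.8 CPM (log2 fold change -0.27, SE 0.07, adjusted p = 0.00595, edgeR), a call lost without batch 1. With shRNF185.1 its value was -0.17 (SE 0.07, adjusted p = 0.0785, edgeR), and the difference between the hairpins was -0.11 (SE 0.07, adjusted p = 0.375, edgeR). All 6 libraries lay below control for 3 mitochondrial members under shRNF185.1 (Mrps5, Mrps21 and Mrpl36) and for 3 under shRNF185.3 (Mrps5, Mrpl34 and Mrpl45), where this held for 5.77% and 5.7% of all genes tested. Among those called under shRNF185.1, at -0.20, was Mrps36, whose product is also known as a subunit of the alpha-ketoglutarate dehydrogenase complex.

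Mrps6 rose with both hairpins, and 0 other members of either class were called higher. It was at 43.4, 48.2 and 55.4 CPM in control, 56.4, 60.7 and 67.1 CPM under shRNF185.1, and 52.1, 61.0 and 66.1 CPM under shRNF185.3. All 6 shRNF185.1 libraries and 5 of the 6 shRNF185.3 libraries lay above the highest control library, where 7.02% of all genes tested had all 6 above under shRNF185.1. The log2 fold change was 0.33 (SE 0.07, adjusted p = 0.00203, edgeR) and 0.30 (SE 0.07, adjusted p = 0.00396, edgeR). Without batch 2 both calls were lost, and without batch 1 that of shRNF185.3 was lost. Mrps6 shares 5.83% of its windows with Slc5a3, a myo-inositol transporter gene of the same locus, whose log2 fold change was -0.28 (SE 0.14, adjusted p = 0.153, edgeR) and -0.07 (SE 0.14, adjusted p = 0.753, edgeR).

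Between the hairpins, 2 of the 79 cytosolic members differed and both were higher under shRNF185.3, where 7.72% of all genes tested were called higher, 6.94% lower and 14.7% in either direction. Rpl17 was at 406, 430 and 462 CPM under shRNF185.1 and 448, 490 and 519 CPM under shRNF185.3, and differed by 0.18 on the log2 scale (SE 0.05, adjusted p = 0.0266, edgeR). Rpl22 differed by 0.18 (SE 0.05, adjusted p = 0.0275, edgeR). Of the mitochondrial members 0 of 76 were called by edgeR, and 0 by DESeq2 or limma-voom. At an unadjusted p under 0.05 in edgeR there were 5, against 3689 of the 14309 genes tested. The median difference was 0.08 over the cytosolic members. The cytosolic count was 0 without batch 1 and 0 without batch 2.

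Genes of related function were tallied in lists chosen with earlier results of these data known, to be read against the 14.3% and 13.1% of all genes tested that were called lower under shRNF185.1 and shRNF185.3. Of 11 ribosomal proteins that carry other symbols, 4 fell under shRNF185.1 and 3 under shRNF185.3, and 0 rose. Rps3a1, a small subunit protein, had a log2 fold change of -0.35 (adjusted p = 4.87e-05, edgeR) and -0.26 (adjusted p = 0.000788, edgeR). Rack1, a signalling scaffold on the small subunit, had -0.34 and -0.23, and Fau, made as a fusion of a ubiquitin-like protein with Rps30, had -0.34 and -0.23, all with an adjusted p of at most 0.0295 in edgeR. Ptcd3, a mitochondrial small subunit protein, had -0.45 (adjusted p = 0.000316, edgeR) under shRNF185.1 and -0.17 (adjusted p = 0.130, edgeR) under shRNF185.3, a difference of 0.28 between hairpins (adjusted p = 0.0224, edgeR).

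A list of 20 genes, mostly translation factors, whose messages are known to carry the same pyrimidine tract was tallied too. Of these, 12 fell under shRNF185.1 and 6 under shRNF185.3, 0 rose, and the medians were -0.20 and -0.15. Tpt1, a growth-related tract message, had -0.28 (adjusted p = 0.000558, edgeR) and -0.31 (adjusted p = 0.000246, edgeR), and Eif3m, a subunit of initiation factor eIF3, had -0.31 (adjusted p = 0.000245, edgeR) and -0.22 (adjusted p = 0.00490, edgeR). Of 54 ribosome biogenesis genes 15 fell under shRNF185.1 and 13 under shRNF185.3, 0 rose, and the medians were -0.22 and -0.21. Snu13, a core protein of box C/D small nucleolar particles, had -0.79 (adjusted p = 1.94e-05, edgeR) and -0.31 (adjusted p = 0.0374, edgeR), and Sbds, which helps release eIF6 from the large subunit, had -0.13 (adjusted p = 0.0205, edgeR) and -0.36 (adjusted p = 4.03e-06, edgeR).

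Mitochondrial ribosome assembly and translation factors had medians of -0.07 and -0.09, with 5 and 6 of 34 lower and 0 higher, near the shares of all genes. Fastkd2, an RNA-binding assembly factor, had -0.52 (adjusted p = 0.000553, edgeR) and -0.53 (adjusted p = 0.000519, edgeR). Mtif2, the mitochondrial initiation factor, had -0.59 (adjusted p = 1.01e-07, edgeR) and -0.21 (adjusted p = 0.00525, edgeR). Of the 13 protein genes of the mitochondrial genome, which these ribosomes translate, 3 fell under shRNF185.1 (mt-Nd2, mt-Nd3 and mt-Atp8) and 0 were called under shRNF185.3, and their summed level was 23945 ± 4630 CPM in control, 20564 ± 1730 CPM under shRNF185.1 and 22284 ± 3120 CPM under shRNF185.3 (SD, n = 6). Of 15 regulators of ribosomal protein messages, Rptor and Mtor rose under shRNF185.1 by 0.20 and 0.13 and Larp4 fell by 0.28 on the log2 scale, and 0 were called under shRNF185.3. Myc had -0.07 (adjusted p = 0.434, edgeR) and -0.11 (adjusted p = 0.211, edgeR).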

How the data were processed

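The authors deposited estimated counts per gene for 18 libraries, adjusted by ComBat-Seq per the labels, and a CPM table. Per the submitters' processing notes, cutadapt 2.3, STAR 2.7.0d, RSEM 1.3.1 and the build mm10 were used; the annotation is not given in the sources used here. The deposited CPM are a normalised signal: counts divided by an effective library size from TMM (trimmed mean of M values). Expected counts were rounded, since 0.466% were not whole; the planned count test was kept. Genes passing filterByExpr (minimum count 10, 14309 genes) were fitted in R 4.3.3 with edgeR 4.0.16 (quasi-likelihood, TMM, a mean per group, no covariate), with Benjamini-Hochberg adjustment over them. Calls were made at an adjusted p under 0.05. Library totals were 22027395 to 43379662 counts, and 3 counts correspond to at most 0.133 CPM. Such floors cover counting error only.

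Symbols, positions, lengths and shared windows came from GENCODE M21 on GRCm38, and promoters from RefSeq on GRCm38.p6. Strandedness of the authors' counting is not given in the sources used here. Members, lists and tests were chosen with earlier results of these data known. Named genes are the 3 highest and 3 lowest called members per class and hairpin (mean count of at least 50), up to 2 called per direction between hairpins, l-ending paralogs, the 3 highest and 3 lowest levels per kilobase, and up to 3 called genes per direction and list. A few listed genes are not reported here. Other genes named were chosen after their values were seen. Libraries of a group differed by more than sampling noise (chi-square per gene at least 7.64 in 45 pairs). The fitting code was tested on simulated data. Alternatives were other scalings, filters and tools (DESeq2 1.42.0, limma 3.58.1), covariates, a GC and length offset, left-out batches, summed libraries and, chosen after seeing the data, copies summed with their member.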

Additional observations from a re-analysis of the deposited data

Results flagged for a closer look

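Single libraries lay far from the rest of their group in 4 of 123 groups of 6 values examined for the named genes, where chance gives about 6.15 (about 1 in 20). Mrps5 was at 6.46 log2 CPM in control replicate 5, with the next library at 6.30. Mrps16 was at 4.77 log2 CPM in replicate 3 of shRNF185.3, with the next at 4.91. In replicate 5 of shRNF185.3, Rpl22 was at 8.16 (next 8.29) and Rpl7l1 at 7.28 log2 CPM (next 7.41).

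The hairpins differed in the test of the difference itself for Rpl17 and Rpl22, which were higher under shRNF185.3 than under shRNF185.1 by 0.18 and 0.18 on the log2 scale (adjusted p = 0.0266 and 0.0275, edgeR). For each, 5 of 6 shRNF185.3 libraries lay above the highest shRNF185.1 library.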

How the results depend on the processing

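In the fits of at least 2 batches, the medians and summed levels against control kept their direction and stayed within the spread between libraries, while the mitochondrial median between hairpins lay between -0.05 and 0.061; in batch 2 alone the mitochondrial medians against control were above 0 (0.11 and 0.02); the counts of cytosolic and mitochondrial calls against control stayed within 1.5 times the reported ones except as follows. Without batch 1, cytosolic calls were 22 and 11 (shRNF185.1, shRNF185.3) and mitochondrial calls 4 and 1. Without batch 2, mitochondrial calls with shRNF185.1 were 29. Without batch 3, cytosolic calls were 38 and 6 and mitochondrial calls 6 and 5. Mitochondrial calls with shRNF185.3 were 15 with the GC and length offset and 5 with no filter beyond 1 count, with batch as a covariate or with the libraries of a group and batch summed. These were 19.7% of the class with that offset, 6.58% with no filter and 6.58% with the batch covariate. Of all genes tested, 34.0%, 12.0% and 22.8% were called there. Between hairpins, cytosolic calls were 4 by library size alone, 4 by DESeq2, 6 with summed libraries, and 0 with no filter, with the batch covariate, without batch 1 or without batch 2. By library size alone 14.5% of all genes tested were called between hairpins, and by DESeq2 16.1%. Mitochondrial calls between hairpins were 2 with the GC and length offset, where 18.5% of all genes tested were called, 1 with summed libraries and 1 without batch 3. The cause was not tested, beyond the fewer libraries in fits without a batch.

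The replicate numbers were checked for pairing: same-numbered libraries of different groups had a mean correlation of deviations of -0.0144 over 18 pairs, from -0.628 to 0.705. Libraries of other numbers in the same batch and another group had a lower mean, -0.434 over 18 pairs, from -0.779 to 0.103. Same-numbered libraries were thus more alike on average than others of their batch. They were not more alike than libraries of another batch and another group, which had a mean of 0.111 over 72 pairs, from -0.676 to 0.781. The labels do not say what the number stands for, and the main fit did not pair libraries by it. With the replicate block, cytosolic calls were 69 and 54 and mitochondrial calls 13 and 8 against control, and 4 cytosolic members were called between hairpins. Of all genes tested, 26.6% and 25.0% were called against control in that fit, and 13.8% between hairpins. With both the replicate block and that offset, cytosolic calls with shRNF185.3 were 62, and between hairpins 6 cytosolic and 1 mitochondrial member were called.

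Of the values of named genes under an alternative, 1434 kept their side of the threshold, 121 lost a call, 20 gained a call and 0 changed direction while called. The lowest mean count of a member was 394.2, and that of a cytosolic member was 1192.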
